A study of Homo sapiens with 5 samples.

Results

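Sensory neurons of the head and trunk arise from the cranial placodes and the neural crest. Proneural transcription factors of the neurogenin family start their formation, and homeodomain factors of the POU4, ISL and TLX families then set their identity. The 10 genes described here belong to this programme or to peripheral neurons: POU4F1, POU4F2, SST, NEUROG1, NEUROG2, TLX3, ONECUT2, ISL1, SNCG and PRPH. They were chosen by name, with earlier values of the same arrays known, because several were high at week 2, so their values across weeks are a description and were not tested. The array held 15 probes for these 10 genes, of 47317 probes and 20045 named genes in all. Of the 10 genes, 9 were above background on at least 1 array.

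The study took H9, an established line of human embryonic stem cells, through 8 weeks of culture meant to give cells like those of the corneal epithelium. The cells were labelled undifferentiated at week 0 and differentiating at weeks 2, 4, 6 and 8, and all 5 groups were kept in E6, a defined medium that was renewed each day. Total RNA of each week was read on 1 single-colour Illumina bead array, and the labels call every sample a non-replicate. No spread between replicates can be had from single arrays, so no difference below carries an error or a test. The arrays are bulk measurements, so fewer cells of a type and less RNA per cell cannot be told apart.

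A limit applies to every comparison with week 2. In a check of each array against the labelled line, by genes that tell human lines apart, 1 of the 5 arrays did not match, that of week 2, and the arrays of weeks 0, 4, 6 and 8 showed no mismatch. In differences that use the week 2 array, time and source of the cells therefore cannot be told apart. Differences among the other 4 arrays are given beside them. Leaving the week 2 array out of the normalization moved none of 28 such differences of these genes by more than 0.0078 on the log2 scale, and all 28 kept their call. Differences between weeks 4 and 8 were not among the 28.

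Values are mean bead signals as deposited, and differences are on the log2 scale after background correction and quantile normalization of the 5 arrays. Above background means a detection p-value under 0.01. The lowest signals that passed were 158.1, 151.1, 152.5, 153.6 and 162.6 at weeks 0, 2, 4, 6 and 8. Higher and lower are calls: a difference of 2-fold or more between a pair of arrays, of which the brighter was above background. A gene counts as measured for a pair when it was above background on either array. If the other array was below background, the call could go in a single direction. A fold against an array below background was computed against the lowest normalized value above background on that array and is written as "at least". Levels of different genes come from different probes and are not compared with each other.

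Promoters are shown for the genes whose profiles lay at the extremes of the group. POU4F1 and SST changed most and together, and PRPH had the profile farthest from that of POU4F1. Each run holds 250 bases before and 50 after the annotated start, 5′ to 3′ on the gene's strand, from RefSeq on GRCh38.p14. The POU4F1 promoter lies at chr13:78603503-78603802 on the minus strand, that of SST at chr3:187670345-187670644 on the minus strand, and that of PRPH at chr12:49294897-49295196 on the plus strand. Capitals mark the E-box CANNTG in POU4F1, the cyclic AMP response element TGACGTCA in SST and the TATA motif TATAAA in PRPH.
POU4F1: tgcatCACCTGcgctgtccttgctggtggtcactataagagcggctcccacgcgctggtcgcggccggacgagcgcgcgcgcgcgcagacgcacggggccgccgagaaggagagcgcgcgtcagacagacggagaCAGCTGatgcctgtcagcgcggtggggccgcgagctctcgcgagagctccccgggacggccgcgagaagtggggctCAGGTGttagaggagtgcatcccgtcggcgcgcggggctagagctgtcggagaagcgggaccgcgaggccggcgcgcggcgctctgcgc
SST: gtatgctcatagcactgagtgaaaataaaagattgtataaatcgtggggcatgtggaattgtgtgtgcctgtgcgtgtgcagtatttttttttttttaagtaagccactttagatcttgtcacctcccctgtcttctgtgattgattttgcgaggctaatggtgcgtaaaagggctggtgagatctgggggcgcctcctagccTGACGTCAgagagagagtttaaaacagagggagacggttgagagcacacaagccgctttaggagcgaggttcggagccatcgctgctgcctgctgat
PRPH: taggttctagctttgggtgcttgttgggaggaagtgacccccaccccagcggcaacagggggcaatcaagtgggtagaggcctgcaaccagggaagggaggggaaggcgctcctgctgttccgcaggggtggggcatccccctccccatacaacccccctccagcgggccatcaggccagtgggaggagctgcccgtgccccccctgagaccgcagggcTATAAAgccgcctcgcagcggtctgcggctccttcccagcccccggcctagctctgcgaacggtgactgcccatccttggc

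The POU4F1 window held 3 E-boxes, the type of site that neurogenins bind, at 245, 115 and 39 bases before the start. Of the 10 genes, 6 had an E-box in at least 1 window (7 of their 11 windows), and 68.7% of all 35116 promoters of the same length did. The CAGATG form (CATCTG on the other strand), which is one of the CANNTG sequences, was present for SNCG alone, 245 bases before the start of its upstream window, against 14.7% of all promoters. The CAGCTG form, also a CANNTG sequence, was present for 4 of the 10, POU4F1, ONECUT2, ISL1 and SNCG, against 17.9%. The SST window held TGACGTCA 47 bases before the start, against 1.85% of all promoters. This motif was added to the search after the sequence had been seen, and no other gene of the group held it. PRPH held TATAAA 31 bases before its start and SST held it 215 bases before, against 11.5% of all promoters (both strands). The homeodomain core TAATTA was found for NEUROG1 alone, against 4.84%, and CCAAT, on either strand, for NEUROG1, TLX3 and ISL1, against 34.6%. These are matches of letters and say nothing of binding in these cells.

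At week 2 all 9 measured genes were called higher than at week 0, when NEUROG2 alone was above background, at 158.7. Their median difference was 2.57, beside a median of -0.02 over all measured genes. Of all 11696 genes measured at either of these weeks, 10.7% were called higher at week 2 and 9.29% lower. The choice of the genes used this contrast, and the genes below background at week 0 could not have been called lower. The count and the median are therefore a description. In 7 of the 9 the week 2 array was the highest of the 5, and in 6 (POU4F1, SST, NEUROG1, TLX3, ONECUT2 and SNCG) by at least 2-fold over every other week, which held for 1.6% of the 10813 genes above background at week 2. POU4F1 and SST stood 4.41 and 3.39 above their next highest week on the log2 scale, and TLX3, just inside the limit, stood 1.16 above. POU4F2, just outside it, stood 0.72 above.

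**Figure D1:**
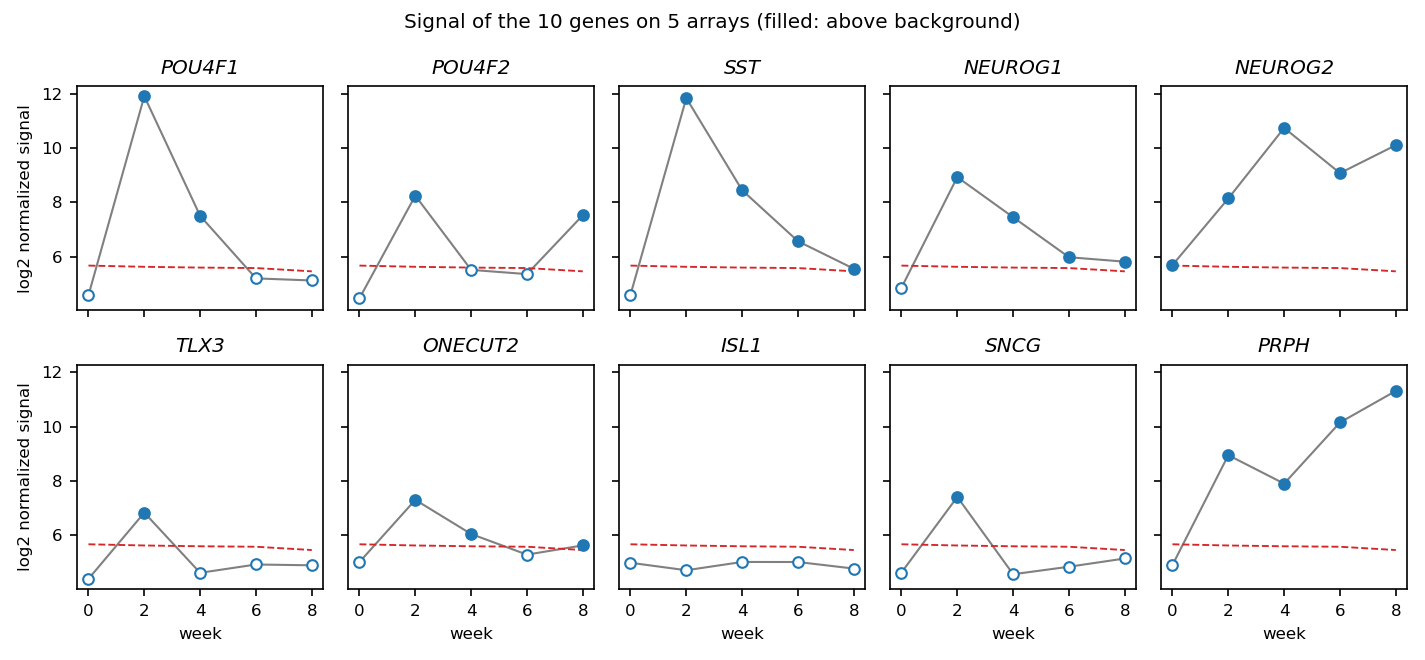
Normalized log2 signal (vertical axis) of the main probe of each gene at weeks 0, 2, 4, 6 and 8 (horizontal axis), 1 array per week. Filled points are above background, open points below, and the dashed line is the lowest value above background on each array. POU4F1 and SST peak at week 2, NEUROG2 at week 4 and PRPH at week 8, and ISL1 stays below the line.

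**Figure D2:**
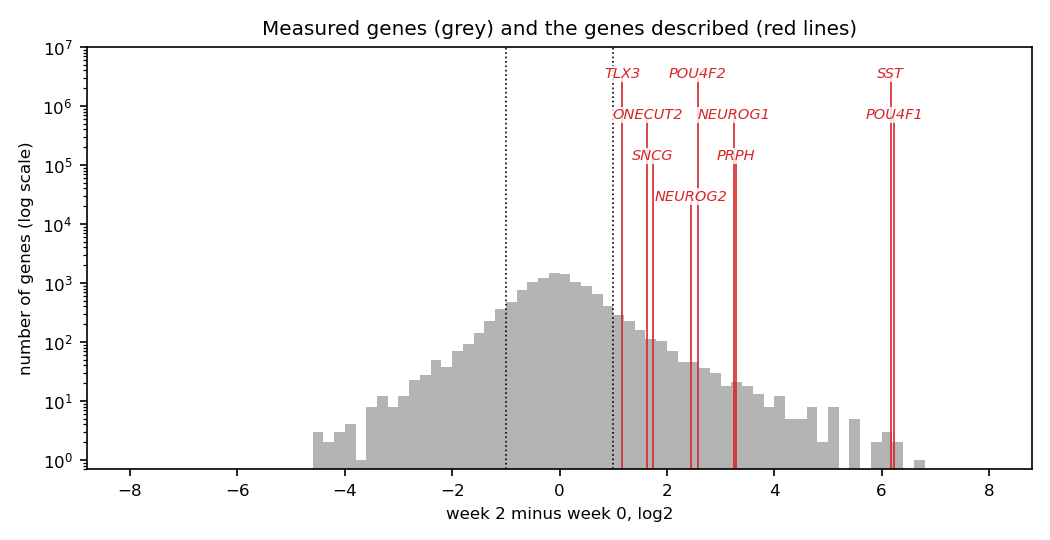
Histogram of the week 2 minus week 0 log2 difference of the measured genes, without the genes used to check the line (grey, number of genes on a log scale), with the 9 measured genes of the group as red lines and 2-fold as dotted lines. The red lines run from 1.16 (TLX3) to 6.24 (POU4F1).

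Among the proneural factors, NEUROG1 and NEUROG2 followed different courses. NEUROG1 is a neurogenin that in the mouse starts sensory neurogenesis in some of the placodes and in later crest cells. NEUROG1 read 134.2, 560.5, 273.4, 168.4 and 178.6 at weeks 0, 2, 4, 6 and 8. It was below background at week 0 and above it at all later weeks, highest at week 2. Against week 0 it was higher by at least 9.57-fold at week 2, and by at least 3.44-fold at week 4. It fell 2.78-fold from week 2 to week 4 and 2.77-fold from week 4 to week 6. Without background correction and on the authors' processed values, the calls at week 4 against week 0 (0.83 and 0.89) and from week 4 to week 6 (-0.73 and -0.60) were lost.

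NEUROG2, the neurogenin of the early sensory wave in the mouse that also acts in the cortex and spinal cord, read 158.7, 367.9, 1682.6, 590.3 and 1338.7. Week 4 was its highest array and week 8 the next, so its course was not one around week 2. It was 5.47-fold above week 0 at week 2, 33.1-fold at week 4, 10.5-fold at week 6 and 21.3-fold at week 8. The week 0 reading lay just above the lowest signal that passed on that array, 158.1, so these folds rest on a reading at the limit. From week 2 to week 4, when the 8 other measured genes of the group were called lower, NEUROG2 rose 6.05-fold.

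Of the POU-domain factors, POU4F1 had the largest change in the group. POU4F1, also named BRN3A, is a defining factor of sensory ganglion neurons, and its gene lies at chr13:78598362-78603552. Its probe read 122.9, 3781.4, 278.8, 141.7 and 150.4. The week 2 array stood far above the others, week 4 was also above background, and weeks 0, 6 and 8 were not. The gene was at least 75.5-fold higher at week 2 than at week 0. By week 4 it had fallen 21.2-fold, and the fall to week 6 was at least 80.4-fold. Without the week 2 array, week 4 was at least 3.56-fold above week 0, and week 6 was lower than week 4 by at least 3.79-fold. Both of these calls were lost without background correction, at 0.86 and -0.89, and the second also on the authors' processed values, at -0.82.

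POU4F2, also named BRN3B, is best known as a factor of retinal ganglion cells and is also present in sensory ganglia. It read 116.2, 388.2, 149.8, 146.4 and 327.7. It was above background at week 2 and again at week 8, and below it at weeks 0, 4 and 6. Week 2 was at least 5.96-fold and week 8 at least 3.62-fold above week 0, and week 8 was at least 3.85-fold above week 6. The week 8 calls were lost without background correction, at 0.88 against week 0 and 0.91 against week 6, and the second also on the authors' processed values, at 0.80. Weeks 2 and 8 differed by -0.72 (week 8 minus week 2) and were not called. ATOH7, the factor that acts before POU4F2 in the retina, read 153.8, 129.4, 145.0, 157.8 and 293.5, and was at least 3.02-fold higher at week 8 than at week 0. Of the 12 genes of the retinal ganglion cell list, 10 were measured at week 8, and 2 were called higher (ATOH7 and IRX2) and 2 lower (RBPMS and THY1) than at week 0, near the shares over all genes, 16.8% higher and 15.4% lower.

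TLX3, a homeobox factor of relay sensory neurons in the mouse, read 110.9, 209.4, 121.4, 133.4 and 142.3. Week 2 was its single array above background, at least 2.24-fold above week 0, and it was lower at week 4 by at least 2.36-fold. The week 2 difference of 1.16 was the smallest of the group and dropped to 0.48 without background correction, 0.80 with an offset of 50 and 0.81 on the authors' processed values, all under the 2-fold limit.

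ONECUT2, a cut-domain factor of retinal, sensory and motor neurons, had 6 probes. On the probe with the highest mean log2 value it read 139.3, 251.0, 169.9, 144.3 and 169.9, above background at weeks 2, 4 and 8. That probe was at least 3.11-fold higher at week 2 than at week 0, and for 2 further probes the bounds were 4.23-fold and 4.27-fold. All 3 probes fell from week 2 to week 4, by 2.39-fold, 2.03-fold and 3.21-fold. The other 3 probes were below background on all 5 arrays, and on the mean of the 6 probes the week 2 difference was 0.57 and not called, as on the authors' processed values, at 0.97. Among the other weeks, the probe with signals of 128.2 at week 0 and 208.2 at week 4 differed by at least 2.08-fold, while the other 2 were not called.

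**Figure D3:**
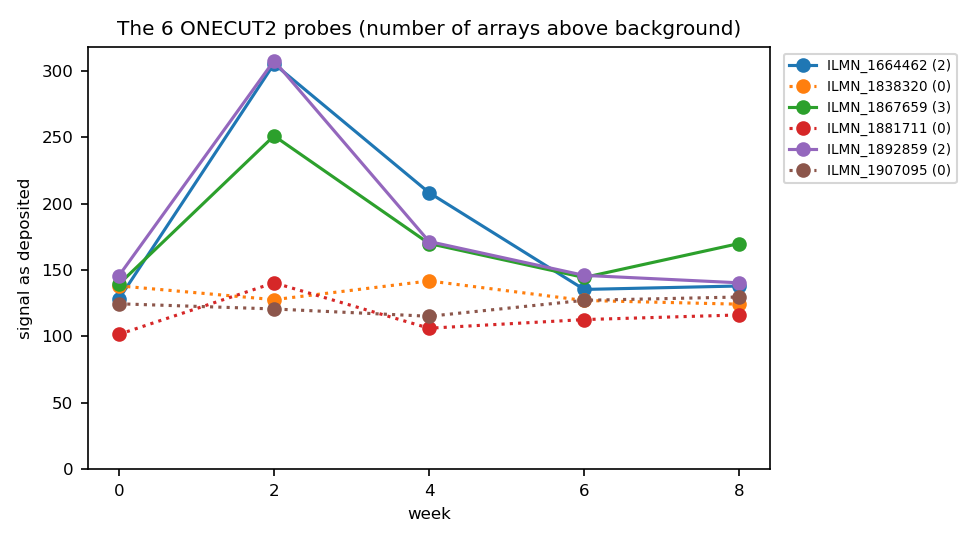
Signal as deposited (vertical axis, linear from 0) of the 6 ONECUT2 probes at weeks 0 to 8, 1 array per week, with the number of arrays above background in the legend. The 3 probes drawn with solid lines are highest at week 2, at 305.2, 251.0 and 307.6, and the 3 drawn with dotted lines are below background throughout.

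ISL1, a LIM homeodomain factor shared by sensory, motor and retinal ganglion neurons, read 138.5, 125.1, 135.3, 136.3 and 137.5 on its single named probe. All 5 readings were below background, so the gene was not measured. Such readings leave its expression unknown.

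SST encodes somatostatin, an inhibitory neuropeptide found in subsets of sensory and central neurons and in endocrine cells. Its probe read 123.8, 3638.3, 431.4, 199.2 and 166.5. All arrays after week 0 were above background, and each was lower than the one before it from week 2 on. Against week 0 it was higher by at least 71.9-fold at week 2, and by at least 6.85-fold at week 4. It fell 10.5-fold from week 2 to week 4, 3.68-fold to week 6 and 2.02-fold to week 8. The receptor gene SSTR2 read 229.9, 328.6, 324.4, 244.3 and 281.0 and was not called at week 2, and SSTR1, SSTR3 and SSTR5 were below background on all 5 arrays.

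The genes of peripheral neuron structure split. SNCG, which encodes gamma-synuclein of peripheral and retinal ganglion neurons, read 125.4, 262.8, 118.9, 130.8 and 151.2. It was above background at week 2 alone, at least 3.35-fold above week 0, and lower at week 4 by at least 3.52-fold. Its week 2 difference of 1.74 was 0.81 without background correction and 0.95 on the authors' processed values, and was then not called.

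PRPH encodes peripherin, an intermediate filament of peripheral neurons, and its gene lies at chr12:49295147-49298686. It read 135.9, 569.8, 331.7, 1089.3 and 2860.7. It was below background at week 0, dipped at week 4 and was highest at week 8, by more than 2-fold over every other week, as were 1.36% of the 11557 genes above background at week 8. Week 2 was at least 9.72-fold and week 8 at least 50.1-fold above week 0. It rose 4.77-fold from week 4 to week 6 and 2.24-fold from week 6 to week 8. The neurofilament gene NEFM, by contrast, read 380.4, 2113.6, 1099.9, 388.5 and 353.7, 8.22-fold above week 0 at week 2 and not called at week 8.

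From week 2 to week 4, 8 of the 9 measured genes were called lower and NEUROG2 higher, while 5.42% of 11712 genes were called lower and 7.27% higher. The median difference was -1.48, against -0.02 over all measured genes. PRPH was near the limit there, with a difference of -1.05. Without background correction, and on the authors' processed values, 4 genes were lower. From week 2 to week 6, 7 of 9 were lower (6.44% of all measured genes), PRPH was higher (9.32%) and NEUROG2 was not called, at 0.93. From week 2 to week 8, 6 of 9 were lower (8.37% of all measured genes), POU4F2 was not called, and NEUROG2 and PRPH were higher (10.9%). The choice of the genes used the week 2 values, so these counts and the median are a description. Genes below background at the later week could not have been called higher there. These were TLX3 and SNCG at weeks 4, 6 and 8, and POU4F2 at weeks 4 and 6. POU4F1 at weeks 6 and 8 and ONECUT2 at week 6 were also below background.

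Among the 4 arrays that showed no mismatch, part of the group was still higher than at week 0. At week 4, 5 of 6 measured genes (POU4F1, SST, NEUROG1, NEUROG2 and PRPH) were called higher than at week 0, as were 14% of 11831 genes, and without background correction SST, NEUROG2 and PRPH remained. From week 4 to week 6, POU4F1, SST, NEUROG1 and NEUROG2 were lower (4 of 6 measured, against 4.26% of 11725 genes) and PRPH was higher (6.23%). At week 6, NEUROG2 and PRPH were higher than at week 0, 2 of 4 measured, against 15.8% of 12025 genes. At week 8, POU4F2, NEUROG2 and PRPH were higher than at week 0, 3 of 6 measured, against 16.8% of 12333 genes. The same 3 genes were higher at week 8 than at week 6, which held for 1.93% of 11940 genes, and SST was lower (1.08%). From week 4 to week 8, POU4F2 and PRPH were higher (2 of 7 measured, against 9.04% of 12126 genes) and POU4F1, SST and NEUROG1 were lower (3 of 7, against 7.29%). Of the steps from week 6 to week 8, the SST and NEUROG2 steps lay near the limit, at -1.01 and 1.03, and were lost without background correction (-0.39 and 0.90). The POU4F2 step, at 1.95, was also lost in that setting (0.91). Comparisons with week 0 share the week 0 array and are not independent of each other. Of the group NEUROG2 alone was above background at week 0, so the others could not be called lower than at week 0.

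**Figure D4:**
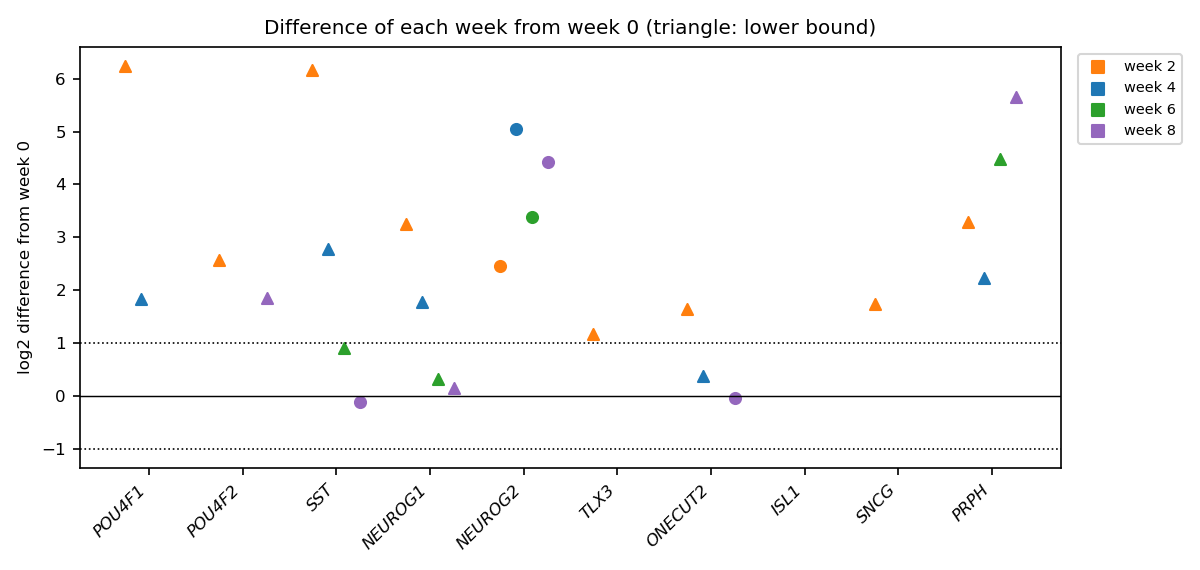
Log2 difference from week 0 (vertical axis) for each gene of the group at weeks 2, 4, 6 and 8 (colours), with 2-fold as dotted lines. Triangles are lower bounds against a week 0 reading below background, and a week with no point was below background at both weeks. Circles have week 0 above background, except those of SST and ONECUT2 at week 8. For these the week 0 reading was below background and set at the limit, which lay above the week 8 value. At week 4, 5 genes lie above 1, from 1.78 (NEUROG1) to 5.05 (NEUROG2).

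Likeness of profiles was taken as the Euclidean distance between log2 profiles over the 5 arrays after subtracting each gene's mean, with readings below background set at the limit. ONECUT2 and SNCG (0.44), TLX3 and ONECUT2 (0.47) and TLX3 and SNCG (0.52) were the closest pairs, and these genes have most arrays at the limit. POU4F1 and SST followed at 1.06. POU4F1 and PRPH were the farthest pair, at 7.19. Over 12981 other measured genes, the 5 nearest to POU4F1 were SST, PPP1R17 (1.45), CSRP3 (1.65), APOA1 (1.99) and EBAG9 (2.10). PPP1R17, a protein phosphatase inhibitor known from cerebellar Purkinje cells, read 136.2, 1259.2, 214.0, 149.9 and 163.1. CSRP3, a LIM protein of striated muscle, read 145.1, 2950.7, 112.4, 114.7 and 127.4, and APOA1, the main protein of high-density lipoprotein, read 135.5, 1326.5, 153.8, 162.5 and 142.5. All 3 were highest on the week 2 array. The genes nearest to the mean profile of the 9 measured members were DACT1 (0.32), DACH2 (0.38), DNAJC11 (0.50), SYT4 (0.56) and ARHGAP15 (0.60). These distances rest on 5 arrays and describe them alone.

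Lists of related genes place the group among its neighbours. These lists, like the group, were chosen with earlier results known. In the list of other sensory neuron transcription factors, 7 of 19 genes were measured at week 2. Of these, 3 were called higher than at week 0 and none lower, with a median of 0.95. Over all measured genes 10.7% were higher and 9.29% lower, with a median of -0.02. ISL2, TLX2, PRDM12, ONECUT1 and ETV1 were below background at week 0, so they could not have been called lower. PRDM12, a factor of pain-sensing neurons, rose at least 4.49-fold, ONECUT1 at least 3.24-fold and TLX2 at least 2.06-fold, and all 3 were below background at weeks 0, 4, 6 and 8. POU4F3, PHOX2A, TLX1, ONECUT3, SHOX2 and KLF7 were below background on all 5 arrays. At week 4, 3 genes of this list were measured, CASZ1 was higher and EYA2 lower, against 14% and 11.5% of all measured genes.

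The genes of mature sensory neurons were mostly not measured. Of 14 channel and transduction genes, SCN10A, SCN11A, TRPA1, TRPM8, P2RX3, ASIC3, KCNK18, MRGPRD, MRGPRX1 and TMC3 were below background on all 5 arrays. Of the 3 measured at week 2, ASIC1, an acid-sensing channel, read 171.5, 1009.5, 237.7, 300.2 and 308.5, 14.5-fold above week 0 at week 2, and PIEZO2 (0.98) and SCN9A (-0.74) were not called. Of 5 measured neurotrophic factor receptors, GFRA1 rose 3.36-fold and GFRA2 at least 2.74-fold at week 2, and the other 3 were not called. Among neuropeptide genes and somatostatin receptors, 3 of 7 measured rose at week 2 (CHGA 5.64-fold, NPY at least 5.51-fold and SCG2 at least 3.96-fold), CALCB fell 3.55-fold, and CALCA was below background throughout. Beside these counts stand the week 2 shares over all measured genes, 10.7% higher and 9.29% lower. GFRA2, NPY and SCG2 were below background at week 0 and could not have been called lower.

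Lists of the steps before sensory neurons, and of neurons at large, are read against the same shares of all genes, 10.7% higher and 9.29% lower at week 2, and 14% higher and 11.5% lower at week 4, each against week 0. In the list of proneural and early neuronal factors all 7 measured genes were higher at week 2, with a median of 2.55, among them EBF2 (at least 23.9-fold), NHLH2 (at least 7.01-fold), NHLH1 (at least 6.10-fold) and the Notch ligand gene DLL1 (at least 5.87-fold). Of these 7, DLL3 alone was above background at week 0, so the others could not have been called lower. At week 4, 8 of 10 were higher than at week 0. In the neural crest list 9 of 11 measured genes were higher at week 2 and none lower, with a median of 2.20, and SOX10, a defining factor of migrating crest and of glia, rose 33.7-fold. At week 4, 6 of 9 were higher than at week 0, SOX10 by 3.57-fold, and ERBB3 and ETS1 were lower. In the placode list 6 of 9 were higher at week 2 and HMX1 was lower, with a median of 1.28, and TFAP2A (at least 104-fold) and EYA1 (at least 11.5-fold) were among those higher. At week 4, 3 of 9 placode genes were higher than at week 0 and 3 lower. TFAP2A is also in the neural crest and amnion lists. At week 0, 4 crest genes and 5 placode genes were above background, and the rest could not be called lower than week 0. From week 2 to week 4, 7 of 9 measured placode genes and 8 of 12 measured crest genes were lower, against 5.42% of all genes. In the pan-neuronal list 10 of 15 were higher at week 2, with a median of 2.15, and SYT1 and SCG3, both just past the limit, were lower. STMN2 read 202.4, 6200.8, 8033.3, 1528.0 and 2299.5, 63.4-fold above week 0 at week 2 and 92.6-fold at week 4. Unlike POU4F1 and SST, no gene of the pan-neuronal list was called lower from week 2 to week 4.

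Several genes of the group also serve other cell types, and their markers are given for that reason. Summed signals of a list are sums of the deposited signals of all its named genes. They hold the background of each gene, also of genes below background. The week 2 counts below stand beside 10.7% of all measured genes called higher than at week 0 and 9.29% lower. Genes below background at week 0 could not have been called lower than at week 0. Among these were GAD1, DLX1, DLX2, TFAP2A, TFAP2B, VTCN1 and all measured cardiac genes. Of the inhibitory forebrain list, 4 of 5 measured genes were higher at week 2, GAD1, GAD2, DLX1 and DLX2, and its summed signal was 1368.0, 2593.0, 5121.1, 2223.7 and 2636.2 over the 5 weeks. Of the endocrine list, CHGA was the single gene called higher of 2 measured at week 2, PDX1, PAX4, GHRL, CHGB and NEUROG3 were below background throughout, and the list's summed signal ran from 1202.0 to 2066.8. INS, the insulin gene, read 119.8, 128.1, 249.9, 579.5 and 834.9 and was higher than week 0 at weeks 4, 6 and 8, by at least 12.6-fold at week 8. Of the motor and autonomic list at week 2, OLIG2 was the single gene called of 6 measured, and SLC18A3, SLC5A7, PHOX2A and HAND2 were below background throughout. TH, the rate-limiting enzyme of catecholamine synthesis, read 111.3, 115.4, 790.7, 609.8 and 1015.6 and was higher than week 0 at weeks 4, 6 and 8, and CHAT was lower at these weeks. DBH, the enzyme that makes noradrenaline, was above background on all 5 arrays and was not called at week 4 or week 8. Of the retinal ganglion cell list, 3 of 8 measured genes were higher at week 2 (NEFM, SLC17A6 and IRX2) and 3 lower (RBPMS, THY1 and EOMES). Of the amnion list, in which TFAP2A, TFAP2B, VTCN1 and TFAP2C were higher (4 of 6 measured), GATA3, HAND1, KRT7 and GABRP were below background throughout. Of the cardiac list, MYL4 and GATA4 were higher (2 of 3 measured), no gene was above background on any other array, and the summed signal was 1367.2 at week 2 and between 1073.0 and 1199.6 at the other weeks. Of the glia list, SOX10 and OLIG2 were higher and S100B, FABP7 and OLIG1 were below background throughout. Of the intermediate filament and synuclein list, NEFL, NEFM and VIM were higher (3 of 7 measured) and SNCB was below background throughout. The pluripotency list fell, with 7 of 8 measured genes lower at week 2 and POU5F1 lower by 15.2-fold. The part of these other cell types in the values of the group was not tested.

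**Figure D5:**
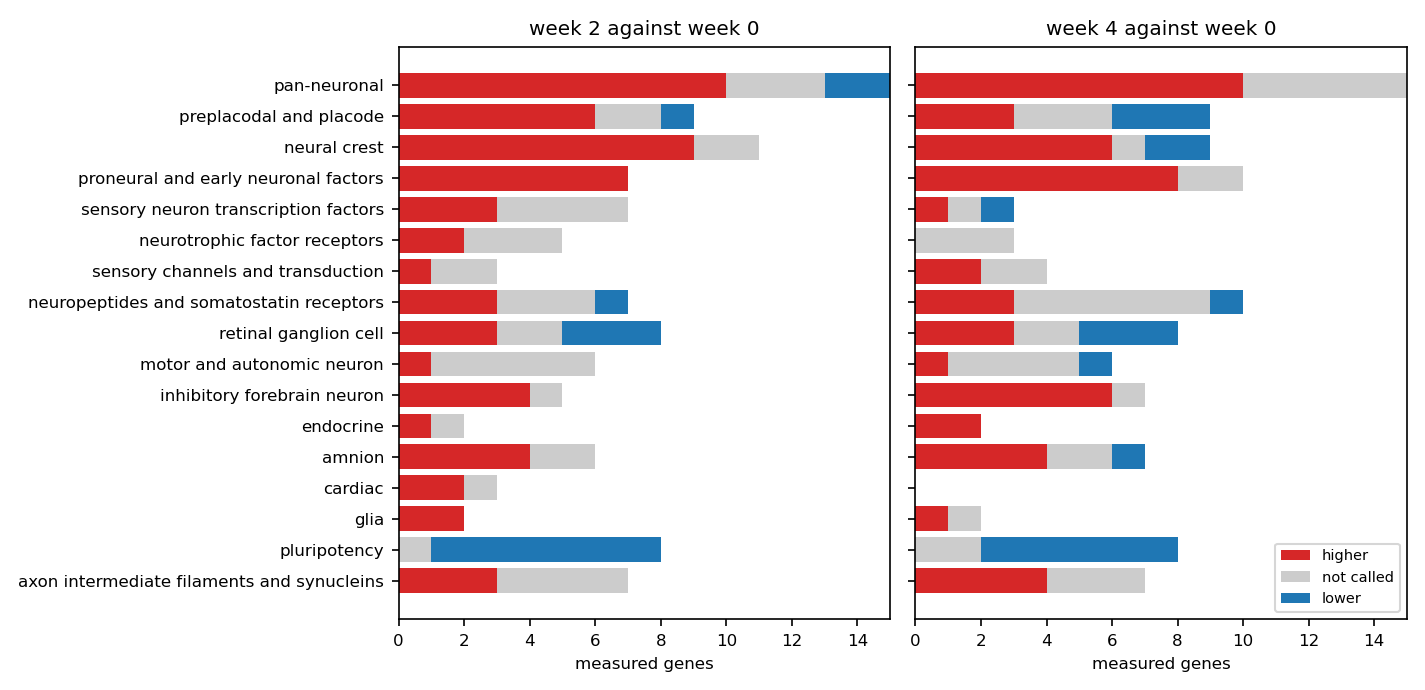
Number of measured genes (horizontal axis) of each of the 17 lists that were called higher (red), not called (grey) or lower (blue) at week 2 (left) and week 4 (right) against week 0, 1 array per week. Genes of a list that were below background at both weeks are not drawn, and the week 2 array did not match the labelled line. In the list of sensory neuron transcription factors 3 of 7 are red at week 2 and 1 of 3 at week 4. Over all measured genes, 10.7% were called higher at week 2 and 14% at week 4.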

How the data were processed

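The 5 arrays lay on 1 chip, 1 per week, per the labels. The main input was the deposited table of bead intensity before normalization, with no background subtracted and a lowest value of 90.0 or more on each array. Beside it the deposited table gives a detection score, a fraction from 0 to 1. It rose with the signal and was taken as the complement of the detection p-value. A second table holds the authors' processed intensity, with column medians of 133.1 (week 0) or 133.2 (later weeks), scale linear, no centring seen, and Spearman correlations across probes of at least 0.9987 with the unnormalized signals. Neither scanner software nor a method for that table is described, so both count as not given in the sources used here.

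Background correction and normalization followed the neqc steps of limma 3.58.1 in R 4.3.3 (normal-exponential background from the detection p-values, offset 16, quantile, log2), and analysed with pandas 2.3.3 and numpy 2.4.6 under Python 3.11.15. Of 47317 probes, 30110 had 1 gene symbol, 8 several and 17199 none in the platform annotation. For 30071 probes the symbol was taken from RefSeq through the Entrez identifier, whether or not it differed from the platform's. A gene was represented by the probe with the highest mean log2 value. Between 16993 and 18358 probes per array were above background, where their median signal was 2.62 to 2.90 times that of the others. Precision is limited by 1 array per week, so no test was run. The steps were tested on simulated data.

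The members, lists, motifs and alternatives were chosen with earlier results of these data known. Named are the members, up to 4 genes of a list with the largest week 2 difference, markers that define a cell type, and the 5 nearest profiles. Further genes named to complete a count were chosen after their values were seen. Genes that tell lines apart were left out of the search for like profiles. Promoters came from RefSeq, GRCh38.p14, and all 10 symbols matched.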

Additional observations from a re-analysis of the deposited data

How the results depend on the processing

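Of 430 single-gene values recomputed under the 7 alternatives, 376 kept their direction and side of the 2-fold limit, 53 kept their direction but fell under it, 1 (SST at week 6 against week 0, 1.31 at a detection limit of 0.05) rose past it, and none reversed. All 9 measured genes lost at least 1 call, mostly without background correction or on the authors' processed values, with 21 losses each. The number of genes higher at week 2 than at week 0 was 9 in the main setting, and 6 to 9 in all others but the restriction to genes above background on all 5 arrays, which leaves NEUROG2 alone of the group. Under that restriction the counts were 1 gene higher at week 2 and 0 lower at week 4 or week 8 than at week 2, 1 higher than week 0 at week 4 and at week 8, and 1 lower at week 6 than at week 4. Without background correction 4 genes in place of 8 were lower at week 4 than at week 2, 3 in place of 5 higher at week 4 than at week 0, and 2 in place of 4 lower at week 6 than at week 4. On the authors' processed values the first of these counts was 4 and the last was 2. Both settings keep the background in the signal, which shrinks differences of dim probes, and over all genes 648 in place of 1247 were called higher at week 2 under each of them. Scaling to a common 75th percentile kept each of the counts named above, but PRPH at week 6 against week 2 fell under the limit, from 1.20 to 0.98. Under this scaling the median of all genes moved from -0.05 to -0.19 at week 4 against week 0. Higher genes made up 41.5% of all calls there in place of 54.9%, and 41.9% in place of 52.1% at week 8. Of 476 counts of the 17 lists, 398 stayed within 1.5 times the main count. The alternative without the week 2 array, and all alternatives for comparisons without week 2 for the lists and for single genes outside the pairs of weeks 0 and 2, 2 and 4, 2 and 8, and 0 and 8, were added after seeing the data. No paired analysis was possible because each week has 1 array. Signal over background limits most of all the differences between a dim reading and one below background.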
